A study of Mus musculus with 12 samples.

Results

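Collagens are the triple-helical proteins of the extracellular matrix, and their genes were taken here as every symbol of the deposited table made of Col, a type number, the letter a and a chain number. The rule found 43 of 23284 gene symbols, and all 43 had a gene of that name in the GENCODE M21 annotation of the mouse build mm10. RNA-seq was available for 12 libraries in 4 groups of 3, all of the strain 129P2/OlaHsd and all from cells sorted as positive for the adhesion molecules α7-integrin and VCAM and negative for the endothelial antigen CD31 and the leukocyte antigen CD45. The teratoma group held cells from 3-week-old teratomas, which are tumours of many tissues grown from pluripotent stem cells. For the transplant group, cells of the teratoma kind had been put into the tibialis anterior muscle, from which the sort was repeated 1 month later. The embryo group was sorted from entire embryos of stage E14.5. The adult group was sorted from the hindlimbs of male mice aged 8 weeks, in whose muscle satellite cells, the stem cells that lie along its fibres, carry both antigens. The sources used here give no host strain and name no mark that separates donor from host cells in the transplant group, and the embryo cells are not from limb muscle alone. The series is about deriving muscle stem cells from pluripotent ones, so the native stages were compared with each other, each derived group with each native one, and the transplant with the teratoma group. The series' design text speaks of biological replicates without saying whether these were separate animals or tumours, and the p-values cover only the spread among the samples.

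Collagen chains are made in the endoplasmic reticulum, where prolines and lysines are hydroxylated and the chaperone HSP47 holds the folded trimer, and are then secreted, trimmed and cross-linked. Fibrillar collagens build the fibrils of interstitial matrix and tendon, FACIT collagens sit on the surface of fibrils, collagen VI forms beaded filaments, and collagen IV forms the network of basement membranes, with collagens XV and XVIII beside it. In skeletal muscle every fibre and the satellite cell on it lie under a basement membrane, outside of which fibroblasts maintain the interstitial collagen. Cartilage is built from another set, led by collagens II, IX, X and XI.

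Values were FPKM, fragments scaled by the length of the gene and by the size of the library, and the number of reads behind them was unknown. Between 9495 and 12000 genes reached 1 FPKM in a library. Between 40.4% and 98.2% of a library's FPKM sum belonged to small and ribosomal RNA, with both the lowest and the second highest share in embryo libraries. A gene was tested where at least 3 libraries reached 1 FPKM, which 12699 genes and 42 of the 43 collagens did. The untested one was Col6a4, a collagen VI chain. Of all 43, 23 collagens had a mean of at least 10 FPKM in at least 1 group, 18 had a highest group mean from 1 to 10 FPKM, and Col6a4 and Col28a1 stayed under 1 FPKM in every group mean. In sorted bulk samples, fewer cells of a type and less RNA per cell cannot be told apart. The sorted cells' own marker list (Pax7, Myf5, Myod1, Itga7, Vcam1 and Cdh15) was measured in every library, with a summed level of 274 to 365 FPKM in teratoma, 299 to 410.0 in transplant, 567 to 704 in adult and 119 to 134 in embryo libraries. Most of the adult sum was Myod1, at 423, 442 and 343 FPKM. Pax7 had a mean of 9.11 FPKM in adult and 23.1 in teratoma, and Cdh15 of 26.3 and 44.6.

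Sequences upstream of 5 collagen genes are shown because these genes carry the main differences described further on: Col3a1 is among the most abundant members, Col5a3 and Col8a1 rose most clearly from teratoma to transplant, and Col4a5 and Col4a6 are neighbours that start back to back on the X chromosome and moved together. Each is printed 5′ to 3′ on the strand of its gene, from RefSeq on GRCm38.p6 (the assembly also called mm10), and holds only bases upstream of every annotated exon. Col3a1 lies at chr1:45311288-45311537 on the plus strand, Col5a3 at chr9:20815118-20815317 on the minus strand, Col8a1 at chr16:57754738-57754987 on the minus strand, Col4a5 at chrX:141475169-141475369 on the plus strand and Col4a6 at chrX:141474096-141474326 on the minus strand. Capitals mark 4 motifs, each searched on both strands. The TATA box, which can position the start of transcription, was searched as TATAAA. The CCAAT box, a common promoter element, was searched by the letters that name it. The GC box, which factors of the Sp family can bind, was searched as GGGCGG. The E-box, which muscle regulators of the MyoD family and other helix-loop-helix factors can bind, was searched as CANNTG.
Col3a1: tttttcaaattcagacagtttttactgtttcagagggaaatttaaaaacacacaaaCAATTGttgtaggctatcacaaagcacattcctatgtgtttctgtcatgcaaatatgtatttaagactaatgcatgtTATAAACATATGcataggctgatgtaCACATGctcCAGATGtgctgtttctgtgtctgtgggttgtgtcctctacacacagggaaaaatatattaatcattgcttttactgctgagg
Col5a3: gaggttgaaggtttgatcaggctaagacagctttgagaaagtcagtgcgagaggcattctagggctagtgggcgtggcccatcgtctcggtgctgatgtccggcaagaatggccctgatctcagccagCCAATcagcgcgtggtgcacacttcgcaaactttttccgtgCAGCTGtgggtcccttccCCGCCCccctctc
Col8a1: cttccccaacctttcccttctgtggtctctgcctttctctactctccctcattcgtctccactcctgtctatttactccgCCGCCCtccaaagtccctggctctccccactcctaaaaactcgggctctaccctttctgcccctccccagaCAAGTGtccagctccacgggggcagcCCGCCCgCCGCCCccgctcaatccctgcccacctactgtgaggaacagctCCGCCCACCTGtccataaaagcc
Col4a5: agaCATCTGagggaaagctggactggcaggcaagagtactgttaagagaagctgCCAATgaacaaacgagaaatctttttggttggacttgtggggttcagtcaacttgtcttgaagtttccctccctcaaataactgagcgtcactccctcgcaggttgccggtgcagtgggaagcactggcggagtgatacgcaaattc
Col4a6: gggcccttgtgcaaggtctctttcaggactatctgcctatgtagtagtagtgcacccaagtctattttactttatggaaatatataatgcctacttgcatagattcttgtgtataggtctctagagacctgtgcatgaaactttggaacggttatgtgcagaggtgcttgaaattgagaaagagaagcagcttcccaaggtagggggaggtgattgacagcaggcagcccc

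The Col3a1 stretch held 1 TATA box, directly followed by an E-box, and 4 E-boxes in all. The Col5a3 stretch held 1 CCAAT box, 1 GC box and 1 E-box. The Col8a1 stretch held 4 GC boxes and 2 E-boxes, and 1 GC box and 1 E-box shared a base. The Col4a5 stretch held 1 CCAAT box and 1 E-box, and none of the 4 motifs occurred in the Col4a6 stretch. Among all 32851 windows of 250 bases upstream of RefSeq starts, 12.4% held a TATA box, 33.8% a CCAAT box, 32.7% a GC box and 66.2% an E-box. A RefSeq window was found for 35 of the 43 members, of which 5 held a TATA box, 13 a CCAAT box, 21 a GC box and 19 an E-box in the whole 250 bases of at least 1 window, not only in the bases kept for printing. These matches describe letters only.

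Collagen mRNA was most abundant in the transplant libraries and least abundant in the adult ones. The 43 levels of a library summed to 7747 ± 1551 FPKM (mean ± SD, n = 3) in transplant, 5320.1 ± 1071 in teratoma, 3452 ± 595 in embryo and 1629.6 ± 281 in adult. The sums of the transplant libraries lay between 6373 and 9428 FPKM, all above the highest teratoma library at 6254, and the adult ones between 1356 and 1917, all below the lowest embryo library at 2864. Among the 22499 genes that are not small or ribosomal RNA, collagens held 3.50% ± 0.711 of the FPKM in transplant, 2.08% ± 0.495 in teratoma, 1.37% ± 0.269 in embryo and 0.723% ± 0.117 in adult libraries. By mean level among the same genes, Col1a1 ranked 3 in the transplant group, 10 in teratoma, 14 in embryo and 67 in adult. Col1a2 ranked 4, 13, 37 and 144 in the same order, and Col3a1 9, 15, 20 and 66.

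**Figure D1:**
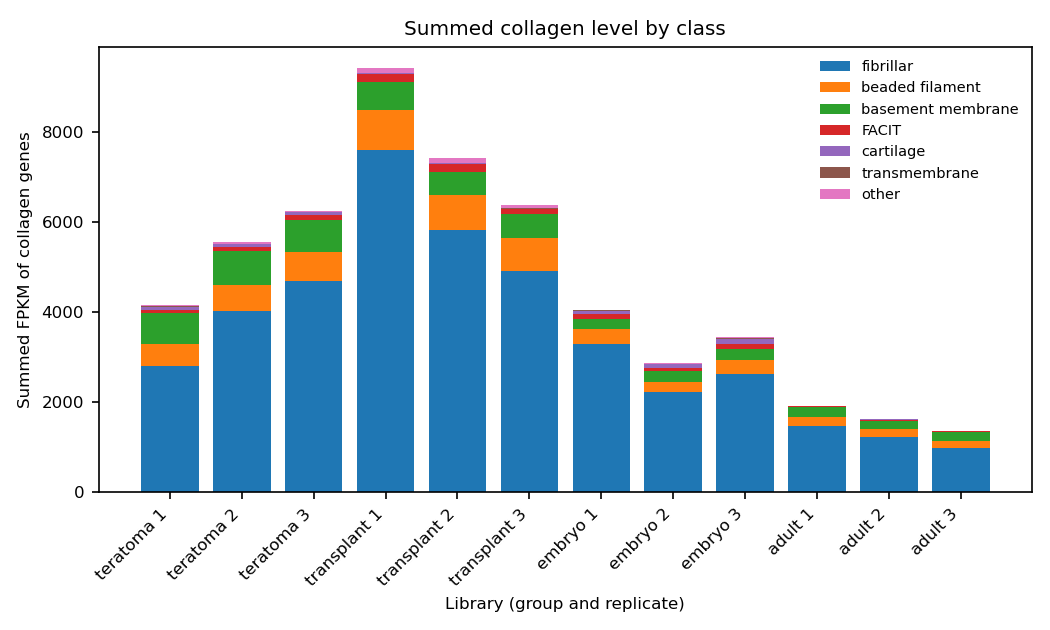
Summed FPKM of the collagen genes in each of the 12 libraries, stacked by class (bars start at 0). The 3 transplant libraries sum to 6373 to 9428 FPKM and the 3 adult libraries to 1356 to 1917, and fibrillar genes form the largest class in every library.

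The makeup of the collagen mRNA differed between the groups as well. Each gene was counted in a single class. The fibril-forming Col2a1, Col11a1 and Col11a2 and the collagen IX genes were counted under cartilage, and not as fibrillar or FACIT genes. Fibrillar genes held 71.7% ± 3.77 of the collagen FPKM in teratoma, 78.7% ± 1.69 in transplant, 74.8% ± 2.25 in adult and 78.2% ± 2.61 in embryo libraries. Basement membrane genes held 13.8% ± 2.62 in teratoma and 12.2% ± 1.25 in adult, but 7.37% ± 1.06 in transplant and 6.86% ± 1.45 in embryo. The 6 libraries of the first pair of groups, from 11.4% to 16.6%, lay above all 6 of the second pair, from 5.26% to 8.54%. Beaded filament genes held 10.8% ± 0.815 in teratoma, 10.4% ± 0.802 in transplant, 10.7% ± 0.860 in adult and 8.43% ± 0.498 in embryo. Cartilage genes held 2.73% ± 0.884 in embryo and 1.24% ± 0.382 in teratoma, against 0.291% ± 0.0581 in transplant and 0.183% ± 0.0204 in adult. FACIT genes held 3.01% ± 0.216 in embryo and from 1.46% to 2.24% in every other library. These shares within a library do not depend on how libraries are scaled against each other.

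Of the 23 members with a group mean of at least 10 FPKM, 13 were highest in the transplant group, 8 in teratoma, 2 in embryo (Col2a1 and Col11a1) and 0 in adult, and 20 were lowest in adult. The exceptions to the last were Col5a3 and Col15a1, lowest in embryo, and Col4a5, lowest in the transplant group. Among all 42 tested collagens, 16 were highest in transplant, 14 in teratoma, 8 in embryo and 4 in adult, and 28 were lowest in adult. The same counts over all genes were not made. The heat map of levels shows both the wide range, from 3024 FPKM for Col1a1 to 0, and the classes in which single members part from the rest.

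**Figure D2:**
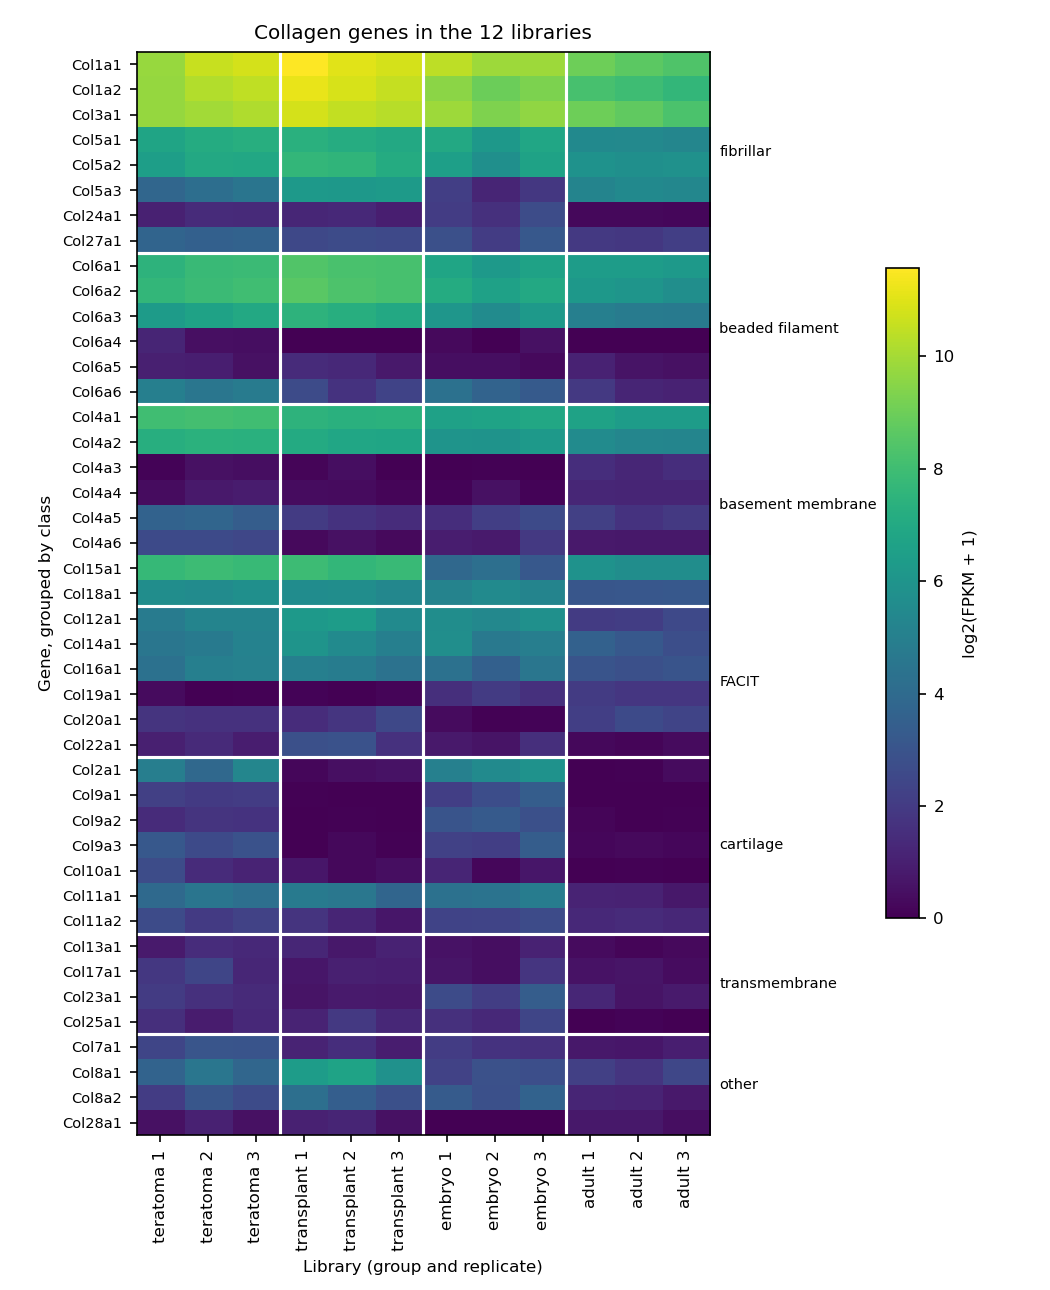
Level of each of the 43 collagen genes (rows, by class) in each of the 12 libraries (columns, by group) as log2(FPKM + 1), from 0 (dark) to the highest value (light). Col1a1, Col1a2 and Col3a1 are the lightest rows in every group, while Col2a1 and the collagen IX genes are near 0 in transplant and adult libraries.

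Between the native stages, adult libraries held less of most collagens than embryo libraries. In adult against embryo, 5 of 42 collagens were higher and 24 lower at an adjusted p under 0.05 (limma on log2(FPKM + 1), Benjamini-Hochberg over all 12699 genes), where 15.8% of all tested genes were called higher and 36.9% lower. The median log2 change was -0.94 over the collagens and -0.42 over all genes. The 5 higher ones were Col5a3, Col15a1, Col20a1, Col4a3 and Col4a4. Of these, Col4a3 and Col4a4 were tested only because the adult libraries reached 1 FPKM. With median-ratio scaling, which moves the median of all genes from -0.42 to -0.04, the calls were 7 higher and 17 lower, and 49.8% in place of 30.0% of all calls were higher.

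By mean summed FPKM, teratoma libraries held more collagen mRNA than either native stage, with a narrow margin over embryo. The lowest teratoma library summed to 4151 FPKM and the highest embryo library to 4054. As shares outside small and ribosomal RNA these libraries were at 1.55% and 1.67%, so the groups overlapped. Against adult, 33 of 42 collagens were higher and 3 lower, where 36.4% and 8.94% of all tested genes were called in these directions. The median log2 change was 1.62 over the collagens and 0.50 over all genes. Every tested cartilage gene (7 of 7) was among the higher ones, and Col5a3, Col4a3 and Col19a1 were the lower ones. Of the latter, Col4a3 was tested only because the adult libraries reached the filter. Among the higher ones, Col10a1, Col17a1 and Col4a6 were tested only because the teratoma libraries reached it. With median-ratio scaling the median of all genes moves to 0.12 and the calls were 31 higher and 5 lower, with 53.0% in place of 80.3% of all calls higher. Against embryo, 15 of 42 collagens were higher and 4 lower, where 15.5% and 10.6% of all genes were called, and the medians were 0.47 and 0.01. The higher ones included Col4a6, which met the filter only through the teratoma libraries. With it, 5 of 8 basement membrane genes and 4 of 5 tested beaded filament genes were higher. Of the latter, Col6a3 and Col6a6 lost the call without teratoma replicate 2, teratoma replicate 3 or embryo replicate 2 (adjusted p from 0.0598 to 0.12), which left 2 of 5. The lower ones were Col19a1, Col23a1, Col24a1 and Col9a2, of which 2 were left without teratoma replicate 2, teratoma replicate 3 or embryo replicate 3.

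After transplantation more collagens were called lower than higher. Of 42, 5 were higher and 12 lower, where 4.18% of all tested genes were called higher and 18.5% lower. The higher ones were Col8a1, Col5a3, Col22a1, Col12a1 and Col6a1, a count that was 2 without teratoma replicate 1, transplant replicate 1 or transplant replicate 2, and the lower ones included 6 of 7 cartilage genes and the chains Col4a1, Col4a5 and Col4a6 of collagen IV. Of the lower ones, Col10a1 and Col4a6 were tested only because the teratoma libraries reached the filter. The median log2 change was -0.05 over the collagens and -0.28 over all genes. Median-ratio scaling moves the latter to -0.03 and gave 11 higher and 9 lower collagens, with 43.4% in place of 18.5% of all calls higher. The 6 members that joined the higher ones were abundant: Col1a1, Col1a2, Col3a1, Col5a2, Col6a2 and Col6a3.

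Against adult, 23 of 42 collagens were higher in the transplant group and 3 lower, where 27.3% and 16.9% of all tested genes were called. The lower ones were Col19a1, Col4a3 and Col4a4, of which Col4a3 and Col4a4 were tested only because the adult libraries reached the filter. With quantile normalization 48.1% in place of 61.7% of all calls were higher, and the collagens were 21 higher and 5 lower. Against embryo, 16 were higher and 10 lower, where 14.9% and 27.6% of all genes were called. With median-ratio scaling they were 20 and 10, and 51.3% in place of 35.0% of all calls were higher. Of the 16, Col28a1 and Col6a5 were tested only because transplant libraries reached 1 FPKM. The comparisons that name the same group share its libraries, so their changes are given side by side for each gene.

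**Figure D3:**
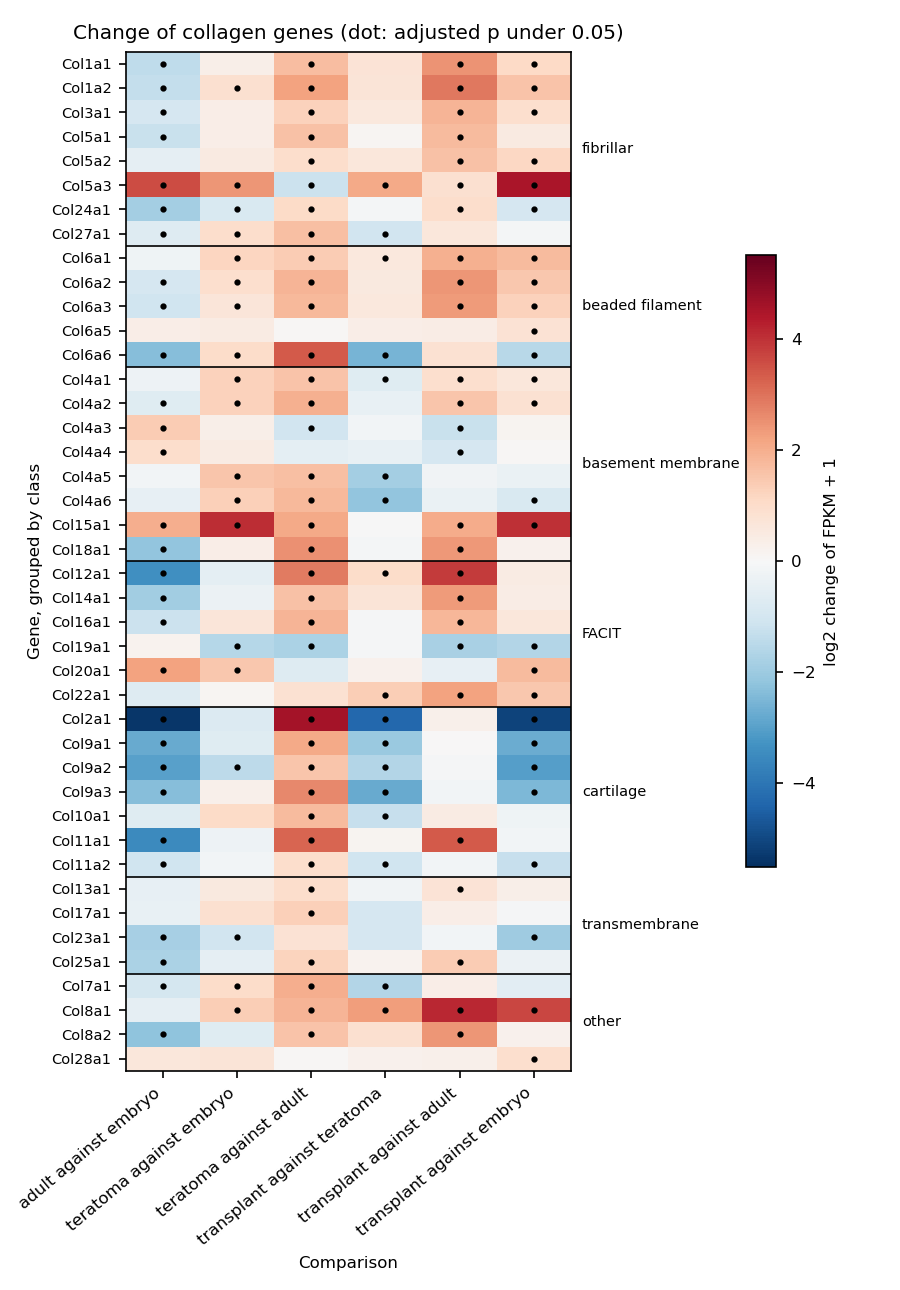
Fitted log2 change of FPKM + 1 for the 42 tested collagens (rows, by class) in the 6 comparisons (columns), red where the group named first is higher and blue where it is lower, with a dot where the adjusted p is under 0.05. Nearly all rows are red in teratoma against adult (33 of 42 called higher), and the cartilage rows are blue in transplant against teratoma (6 of 7 called lower).

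Collagens I and III, whose chains come from Col1a1, Col1a2 and Col3a1, are the main fibril formers of interstitial matrix. Col1a1 (chr11:94936224-94953042 of mm10, as are the gene positions that follow) stood at 876, 1518 and 1804 FPKM in the 3 teratoma libraries, 3024, 2133 and 1802 in transplant, 513, 405 and 327 in adult and 1380.0, 937 and 945 in embryo. Every adult library lay below all 9 others, while the lowest transplant library fell within the teratoma range. By the ratio of mean FPKM it was 2.62-fold lower in adult than in embryo (log2 change -1.39 ± 0.30 (SE), limma adjusted p = 0.00206) and 5.59-fold higher in transplant than in adult (log2 change 2.47 ± 0.30 (SE), limma adjusted p = 6.46e-05). From teratoma to transplant the log2 change was 0.76 ± 0.30 (limma adjusted p = 0.0909), which did not pass. It did pass with median-ratio scaling (adjusted p = 0.0497) and with small RNA left out (adjusted p = 0.0395).

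Col1a2, the partner chain of collagen I, was measured at 846, 1208 and 1421 FPKM in teratoma, 2302, 1846 and 1491 in transplant, 296, 249.7 and 203 in adult and 743, 506 and 631 in embryo libraries. Here the 4 groups did not overlap, and the order was transplant, teratoma, embryo, adult. The step from embryo to teratoma passed (log2 change 0.87 ± 0.25 (SE), limma adjusted p = 0.0218), but not without teratoma replicate 2 (adjusted p = 0.0731), teratoma replicate 3 (0.0853) or embryo replicate 2 (0.0693). The step from teratoma to transplant, 0.71 ± 0.25, had an adjusted p of 0.0577, and passed without teratoma replicate 3 (0.042) or transplant replicate 3 (0.0494) and with median-ratio scaling (0.0236). Col3a1 (chr1:45311538-45349706) followed the same order of means, with 859, 1003 and 1156 FPKM in teratoma, 1826, 1440.1 and 1282 in transplant, 517, 424 and 312 in adult and 936, 642 and 809.5 in embryo. Only teratoma and embryo overlapped. The log2 change from embryo to adult was -0.94 ± 0.23 (limma adjusted p = 0.00429). With median-ratio scaling that fall no longer passed for Col3a1 (adjusted p = 0.2) or Col1a1 (0.055), and it did for Col1a2.

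The balance of the collagen I chains, which the type I trimer takes up in unequal numbers, separated derived from native cells. The ratio of Col1a1 to Col1a2 FPKM was 1.19 ± 0.131 in teratoma and 1.23 ± 0.0804 in transplant, against 1.74 ± 0.206 in embryo and 1.66 ± 0.0667 in adult. The 6 derived libraries, from 1.04 to 1.31, did not overlap the 6 native ones, from 1.498 to 1.86. No test was run on these ratios, which use FPKM per length within a library.

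Collagen V regulates the diameter of collagen I fibrils, and its 3 chains did not move alike. Col5a1 was at 108, 138 and 151 FPKM in teratoma, 163, 141 and 125 in transplant, 44.3, 42.0 and 39.0 in adult and 126, 71.1 and 112 in embryo. The adult libraries again lay below all others (against embryo, log2 change -1.25 ± 0.21 (SE), limma adjusted p = 0.000355), while teratoma, transplant and embryo overlapped. Col5a2 was at 89.4, 126 and 123 FPKM in teratoma, 199.6, 187 and 139.6 in transplant, 58.2, 53.5 and 56.6 in adult and 90.8, 53.1 and 101 in embryo, and its embryo libraries overlapped both the teratoma and the adult ones. It was higher in transplant than in adult (log2 1.61, limma adjusted p = 0.000216) and embryo (log2 1.13, limma adjusted p = 0.00219).

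Col5a3, which encodes the remaining chain, went the other way between the native stages. Its levels were 3.42, 1.31 and 2.63 FPKM in the embryo libraries, 36.5, 43.3 and 39.5 in adult, 12.9, 17.1 and 21.3 in teratoma and 75.1, 70.1 and 78.9 in transplant. The 4 groups did not overlap, with embryo lowest and transplant highest. It was 16.2-fold higher in adult than in embryo (log2 change 3.61 ± 0.24 (SE), limma adjusted p = 2.42e-07), 6.97-fold higher in teratoma than in embryo (log2 2.41, limma adjusted p = 2.53e-05) and 4.36-fold higher in transplant than in teratoma (log2 change 2.09 ± 0.24 (SE), limma adjusted p = 0.000148). The transplant level was also above the adult one (log2 0.89, limma adjusted p = 0.00925). Every alternative processing kept these 4 calls. Relative to Col5a1 within a library, Col5a3 stood at 0.0230 ± 0.00438 in embryo, 0.128 ± 0.0114 in teratoma, 0.529 ± 0.0890 in transplant and 0.957 ± 0.115 in adult, so the adult cells held about as much Col5a3 as Col5a1.

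The remaining genes counted in the fibrillar class, which leaves out those of cartilage, were low. Col27a1 was at 12.2, 10.8 and 11.3 FPKM in teratoma, 4.75, 5.31 and 4.86 in transplant, 2.81, 2.62 and 3.40 in adult and 6.04, 3.10 and 8.01 in embryo. All 3 teratoma libraries lay above every other library, and the gene fell from teratoma to transplant (log2 change -1.06 ± 0.26 (SE), limma adjusted p = 0.0134). Its fall from embryo to adult (adjusted p = 0.0397) was lost under 10 alternatives, among them leaving out embryo replicate 1 or 3 or any of the 3 adult libraries. Col24a1 had a mean of 3.52 FPKM in embryo, 1.45 in teratoma, 1.29 in transplant and 0.173 in adult, the last lower than each of the other groups.

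Collagen VI, made mainly of the chains Col6a1, Col6a2 and Col6a3, surrounds muscle fibres and satellite cells, and its loss causes muscular dystrophies. Col6a1 was at 177, 226 and 233 FPKM in teratoma, 339, 303 and 296 in transplant, 82.5, 83.3 and 75.4 in adult and 110.1, 74.2 and 100.4 in embryo. The transplant and teratoma libraries lay above all native ones, and embryo and adult overlapped. Its rise from embryo was 1.16 ± 0.17 in teratoma (limma adjusted p = 0.000429) and 1.73 ± 0.17 in transplant (adjusted p = 8.76e-06) on the log2 scale. The step from teratoma to transplant passed with all libraries (log2 0.57, limma adjusted p = 0.032) and without teratoma replicate 3, but not when any other 1 of the 6 libraries was left out (adjusted p from 0.0532 to 0.121).

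Col6a2 was at 198, 234 and 258 FPKM in teratoma, 385, 319 and 294 in transplant, 70.1, 63.5 and 51.8 in adult and 139, 96.6 and 124 in embryo, with no overlap between groups. Col6a3 was at 81.2, 99.8 and 124 FPKM in teratoma, 178, 149.8 and 123 in transplant, 30.7, 27.3 and 26.6 in adult and 67.3, 46.9 and 75.4 in embryo, and of its groups only teratoma and transplant overlapped. Both fell from embryo to adult, Col6a2 by 0.94 (limma adjusted p = 0.000975) and Col6a3 by 1.11 (adjusted p = 0.000799) on the log2 scale, whereas the change of Col6a1 was -0.22 (adjusted p = 0.299). The fall of Col6a2 did not pass with median-ratio scaling (adjusted p = 0.115). The ratio of Col6a1 to Col6a2 was 1.31 ± 0.138 in adult, above the 0.791 ± 0.0226 of embryo, 0.922 ± 0.0397 of teratoma and 0.946 ± 0.0628 of transplant libraries, with no overlap of adult and the rest.

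Col6a6, an alternative to the Col6a3 chain of collagen VI, parted from the other chains. It was at 30.3, 22.04 and 27.3 FPKM in teratoma, 5.27, 2.1954 and 4.01 in transplant, 2.74, 1.27 and 1.14 in adult and 18.8, 11.7 and 8.75 in embryo. Embryo and teratoma libraries were high and transplant and adult libraries low, with no overlap between these pairs. From teratoma to transplant it was 6.94-fold lower (log2 change -2.56 ± 0.33 (SE), limma adjusted p = 0.000321), and from embryo to adult 7.62-fold lower (log2 change -2.36 ± 0.33 (SE), limma adjusted p = 8.39e-05). Its neighbour Col6a5 reached at most 1.66 FPKM and Col6a4 at most 1.32 FPKM in any library, and Col6a4 was listed at 0 in all 3 transplant libraries.

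Collagen IV networks hold basement membranes together, and their common trimer combines the products of Col4a1 and Col4a2, neighbours on chromosome 8 that start back to back and overlap at their starts. Since the use of strand in counting is not given in the sources used here, reads from the shared bases cannot be assigned to either. Col4a1 was at 257, 279 and 259.5 FPKM in teratoma, 179, 161 and 166 in transplant, 101, 83.0 and 83.3 in adult and 98.5, 105 and 122 in embryo. Teratoma libraries were highest and transplant libraries second, both without overlap, and embryo and adult overlapped. The level was 2.44-fold higher in teratoma than in embryo (log2 change 1.29 ± 0.14 (SE), limma adjusted p = 4.42e-05) and lower in transplant than in teratoma (log2 change -0.65 ± 0.14 (SE), limma adjusted p = 0.00556), the latter lost with median-ratio scaling (adjusted p = 0.101).

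Col4a2 was at 153, 166 and 161 FPKM in teratoma, 135, 114 and 109 in transplant, 47.3, 38.3 and 37.3 in adult and 63.1, 59.9 and 73.5 in embryo. The groups did not overlap, in the order teratoma, transplant, embryo, adult. Its rise from embryo to teratoma nearly equalled that of Col4a1 (log2 1.28, limma adjusted p = 7.34e-05). From embryo to adult Col4a2 fell (log2 -0.67, limma adjusted p = 0.00208), though not with median-ratio scaling (adjusted p = 0.449), and Col4a1 had a change of -0.28 (adjusted p = 0.0987). The ratio of Col4a1 to Col4a2 within a library was 2.18 ± 0.0501 in adult, 1.66 ± 0.0938 in embryo, 1.66 ± 0.0353 in teratoma and 1.42 ± 0.0990 in transplant, and adult did not overlap the others.

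The minor collagen IV chains were far lower and followed their genomic pairs. Col4a5 (chrX:141475385-141689234) was at 11.5, 12.6 and 9.51 FPKM in teratoma, 3.06, 2.22 and 1.74 in transplant, 3.60, 2.19 and 2.79 in adult and 1.82, 3.37 and 5.12 in embryo. Col4a6 (chrX:141165403-141474076), whose start lies 1308 bases from that of Col4a5 on the other strand, was at 5.06, 4.98 and 4.47 FPKM in teratoma, 0.238, 0.442 and 0.231 in transplant, 0.725, 0.662 and 0.668 in adult and 0.895, 0.767 and 2.81 in embryo. For both, the teratoma libraries lay above the other 9. From teratoma to transplant Col4a5 was 4.80-fold lower (log2 change -1.88 ± 0.30 (SE), limma adjusted p = 0.00104) and Col4a6 15.9-fold lower (log2 change -2.17 ± 0.29 (SE), limma adjusted p = 0.000375). Col4a3 and Col4a4, another pair with starts 71 bases apart on opposite strands, were highest in adult, with 1.87, 1.34 and 1.83 FPKM and 1.36, 1.32 and 1.27 FPKM, and were under 1 FPKM in every other library. From embryo to adult the log2 change was 1.38 ± 0.22 for Col4a3 (limma adjusted p = 0.00025) and 0.97 ± 0.23 for Col4a4 (adjusted p = 0.00354). Both genes met the filter only through the adult libraries, so their calls involving adult are not independent of that filter. The same held for Col4a6 and its calls involving teratoma, since it met the filter only through the teratoma libraries.

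Markers of other cells that make basement membrane also differed between teratoma and transplant. The epithelial list (7 genes, all tested) summed to 102 to 306 FPKM in teratoma, 0.728 to 10.6 in transplant, 0.691 to 1.99 in adult and 6.13 to 47.7 in embryo libraries, and 7 of 7 were called lower in transplant than in teratoma, as were 18.5% of all tested genes. Epcam, a surface protein of epithelia, was listed at 0 in all transplant libraries and stood at 27.4, 34.4 and 5.76 FPKM in teratoma. The endothelial list (7 genes) summed to 42.4 to 54.2 FPKM in teratoma, 6.47 to 9.69 in transplant, 16.4 to 27.2 in adult and 18.0 to 42.0 in embryo, and 5 of 7 were called lower in transplant than in teratoma. The mural list (6 genes) summed to 161 to 164, 129 to 157, 97.4 to 99.9 and 111 to 144 FPKM in the same order, and 4 of 6 were lower. In teratoma against embryo, 5 epithelial genes were called higher and 0 lower. There 1 endothelial gene was higher and 1 lower, and 2 mural genes were higher and 1 lower, where 15.5% and 10.6% of all genes were. The part of these cells in the collagen IV differences was not tested.

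Col15a1 and Col18a1, whose products carry sugar chains and bridge basement membranes to the fibrils outside, had opposite native courses. Col15a1 was at 211, 244 and 223 FPKM in teratoma, 244, 200.02 and 227 in transplant, 59.0, 49.8 and 50.2 in adult and 13.8, 17.7 and 8.18 in embryo. Teratoma and transplant overlapped, and both lay above adult, which lay above embryo. It was 17.1-fold higher in teratoma than in embryo (log2 change 4.05 ± 0.22 (SE), limma adjusted p = 5.07e-07), 4.01-fold higher in adult than in embryo (log2 change 1.98 ± 0.22 (SE), limma adjusted p = 1.33e-05), and its change from teratoma to transplant was -0.02 ± 0.22 (adjusted p = 0.965). Col18a1, the source of endostatin, was at 50.1, 47.1 and 52.7 FPKM in teratoma, 48.3, 49.2 and 40.03 in transplant, 7.60, 7.91 and 7.97 in adult and 35.1, 44.9 and 36.1 in embryo. Adult alone was low, 4.94-fold under embryo (log2 change -2.16 ± 0.15 (SE), limma adjusted p = 2.87e-07). The ratio of Col15a1 to Col18a1 was therefore below 1 in embryo (0.338 ± 0.0967) and above 4 in all other libraries (4.54 ± 0.559 in teratoma, 4.93 ± 0.808 in transplant and 6.79 ± 0.848 in adult).

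**Figure D4:**
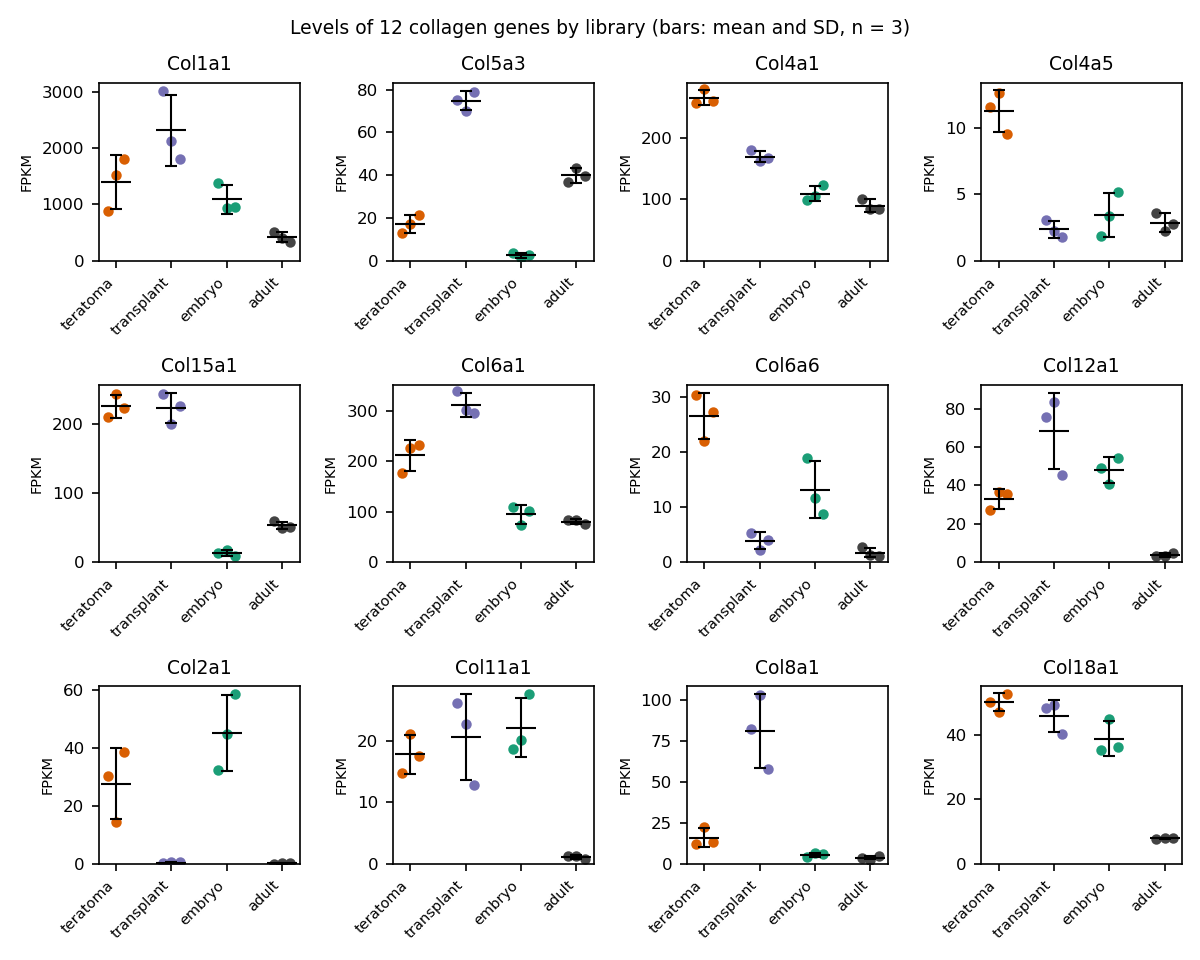
FPKM of 12 collagen genes in each library (points) with the mean and SD of each group of 3 (lines), one panel per gene with its own linear axis from 0. Col5a3 and Col8a1 are highest in the 3 transplant libraries, Col4a5 in the 3 teratoma libraries, and Col2a1 is near 0 in transplant and adult, while Col11a1 is low in adult alone.

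FACIT collagens decorate fibrils and are abundant in tendon and fascia. Of the 6 genes counted in this class, which leaves out collagen IX, Col12a1, Col14a1 and Col16a1 were lowest in adult libraries, without overlap. Col12a1 was at 27.0, 36.4 and 35.6 FPKM in teratoma, 75.8, 83.6 and 45.7 in transplant, 3.05, 3.31 and 4.95 in adult and 49.1, 40.9 and 54.5 in embryo. All adult libraries were at or under 4.95 FPKM and all others at or above 27.0. It was 12.8-fold lower in adult than in embryo (log2 change -3.38 ± 0.24 (SE), limma adjusted p = 4.6e-07) and 18.1-fold higher in transplant than in adult (log2 change 3.84 ± 0.24 (SE), limma adjusted p = 1.16e-06). Its rise from teratoma to transplant (log2 0.99, limma adjusted p = 0.0124) was lost without teratoma replicate 1 (adjusted p = 0.0553), transplant replicate 1 (0.0521) or transplant replicate 2 (0.051).

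Col14a1 was at 22.3, 25.5 and 34.1 FPKM in teratoma, 62.6, 46.0 and 31.2 in transplant, 11.2, 8.13 and 5.84 in adult and 51.3, 24.8 and 30.2 in embryo. Col16a1 was at 19.1, 30.6 and 32.9 FPKM in teratoma, 30.5, 28.4 and 19.8 in transplant, 6.90, 6.08 and 6.93 in adult and 18.9, 10.6 and 22.03 in embryo. For both, adult lay below the other 3 groups, which overlapped with each other. Both fell from embryo to adult (Col14a1 log2 -1.93, limma adjusted p = 0.000308, Col16a1 log2 -1.20, limma adjusted p = 0.00307), the second not with median-ratio scaling (adjusted p = 0.0529). The lower members had courses of their own. Col22a1, known from the junction of muscle and tendon, had 6.07, 6.48 and 2.18 FPKM in transplant and at most 1.99 elsewhere, and rose from teratoma (log2 change 1.35 ± 0.36 (SE), limma adjusted p = 0.0185). That rise was lost without teratoma replicate 1 or 3 or transplant replicate 1 or 2 (adjusted p from 0.0512 to 0.0755). Col20a1 was at 4.24 ± 0.759 FPKM (mean ± SD, n = 3) in adult against 0.131 ± 0.117 in embryo (log2 2.21, limma adjusted p = 3.78e-05). Col19a1 was at 2.34 ± 0.622 FPKM in embryo and 2.73 ± 0.263 in adult, but at 0.113 ± 0.137 in teratoma and 0.0682 ± 0.0645 in transplant, lower in both derived groups than in both native ones (adjusted p from 7.30e-05 to 0.000373).

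Most cartilage collagens were higher in teratoma and embryo than in transplant and adult cells. Col2a1, the main fibril former of cartilage, was at 30.1, 14.2 and 38.6 FPKM in teratoma, 0.140, 0.400 and 0.473 in transplant, 0, 0.0618 and 0.283 in adult and 32.1, 44.8 and 58.3 in embryo. The 6 libraries of teratoma and embryo were all at or above 14.2 FPKM and the 6 of transplant and adult all under 0.5. The fall from teratoma to transplant was 81.8-fold (log2 change -4.32 ± 0.34 (SE), limma adjusted p = 1.45e-05), and embryo and adult differed in the same direction (log2 change -5.34 ± 0.34 (SE), limma adjusted p = 1.87e-07). Col9a1, Col9a2 and Col9a3, the chains of the FACIT collagen of cartilage, followed it, with means of 3.23, 2.08 and 6.49 FPKM in teratoma, 6.22, 7.27 and 5.58 in embryo, and at most 0.226 FPKM in any transplant or adult library. Col11a2 fell in the same comparisons, from 4.003 ± 1.17 FPKM in teratoma to 1.41 ± 0.869 in transplant (log2 -1.09, limma adjusted p = 0.0188), a call lost without teratoma replicate 1 (adjusted p = 0.0815) or transplant replicate 3 (0.0717) and with median-ratio scaling (0.0523) or quantile normalization (0.0621). Col10a1, the collagen of hypertrophic cartilage, had 5.38, 1.65 and 1.21 FPKM in teratoma and under 1.31 elsewhere. It met the filter only through the teratoma libraries.

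Col11a1, which joins Col11a2 and a Col2a1 product in the collagen XI of cartilage but is also made in other tissues, was not called after transplantation. It was at 14.7, 21.2 and 17.5 FPKM in teratoma, 26.3, 22.8 and 12.8 in transplant, 1.26, 1.18 and 0.670 in adult and 18.7, 20.2 and 27.7 in embryo. Teratoma, transplant and embryo overlapped, and adult lay far below them. Its change from teratoma to transplant was 0.16 ± 0.27 (limma adjusted p = 0.713), with a 95% interval of the log2 change from -0.46 to 0.78, while from embryo to adult it fell by 3.50 ± 0.27 on the log2 scale (adjusted p = 7.91e-07). The ratio of Col2a1 to Col11a1 ran from 0.667 to 2.2001 in teratoma and 1.72 to 2.22 in embryo, and from 0.00532 to 0.0368 in transplant and 0 to 0.422 in adult.

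Of 10 cartilage markers listed, 9 were in the table and 7 were tested, and they did not all move like Col2a1. Their sum ranged over 70.6 to 85.5 FPKM in teratoma, 90.9 to 116 in transplant, 37.8 to 46.5 in adult and 20.8 to 30.5 in embryo. Of the 9, 5 were under 1 FPKM in every transplant library, 7 in adult, 1 in teratoma and 2 in embryo. The transplant and adult sums thus rest on few genes. In adult against embryo, 2 of 7 were called higher and 4 lower, where 15.8% and 36.9% of all genes were. From teratoma to transplant 2 were called lower, Hapln1 and Lect1, and 2 higher, Comp and Epyc, where 18.5% of all genes were called lower and 4.18% higher. Lect1, the gene of chondromodulin, was listed at 0 in all transplant libraries, as was the cartilage matrix gene Matn1, and the aggrecan gene Acan was at 1.88, 2.19 and 1.22 FPKM there against 3.43, 2.70 and 6.13 in teratoma. Sox9, the regulator of cartilage fate that is also known in other progenitors, was at 39.1, 45.8 and 48.9 FPKM in transplant and 34.4, 28.8 and 29.7 in adult. The part of cartilage cells in the levels of these collagens was not tested.

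Among the short-chain collagens, Col8a1, known from vessel walls and the membrane behind the cornea, was the member with the largest rise from teratoma to transplant. It was at 11.7, 22.4 and 13.02 FPKM in teratoma, 82.0, 103 and 57.6 in transplant, 3.62, 2.44 and 4.49 in adult and 3.93, 6.22 and 5.77 in embryo. The lowest transplant library was above the highest teratoma library, teratoma was above both native groups, and these overlapped. The rise from teratoma was 5.14-fold (log2 change 2.31 ± 0.29 (SE), limma adjusted p = 0.000285), and against adult it was 23.0-fold (log2 change 4.17 ± 0.29 (SE), limma adjusted p = 2.02e-06). Col8a2, its partner, was at 3.13, 7.63 and 5.24 FPKM in teratoma, 17.5, 9.93 and 5.99 in transplant, 1.26, 1.24 and 0.743 in adult and 8.94, 6.06 and 11.3 in embryo, low in adult and overlapping among the rest. The ratio of Col8a1 to Col8a2 was 8.21 ± 3.07 in transplant and 0.659 ± 0.320 in embryo.

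Col7a1, the anchoring fibril collagen below epithelia, was highest in teratoma at 4.29, 7.21 and 6.97 FPKM. It fell in transplant to 1.23, 1.89 and 0.872 (log2 change -1.61 ± 0.27 (SE), limma adjusted p = 0.00137). The epithelial list fell in the same comparison, and the part of epithelial cells in the level of Col7a1 was not tested. The 4 transmembrane collagens stayed under 10 FPKM in every library, and 0 of 4 were called in either direction between transplant and teratoma at an adjusted p under 0.05 by limma. At an unadjusted p under 0.05, Col17a1 (0.0263) and Col23a1 (0.0159) were lower in transplant. Col23a1 and Col25a1, the latter needed for motor nerve entry into muscle, were highest in embryo (6.08 ± 3.27 and 2.59 ± 1.49 FPKM) and fell in adult (log2 -1.82, limma adjusted p = 0.000599 and log2 -1.73, limma adjusted p = 0.000726). Col13a1, a synapse collagen of muscle, and Col17a1, an epithelial one, were higher in teratoma than in adult (log2 0.95, limma adjusted p = 0.0132 and log2 1.30, limma adjusted p = 0.0137). Both calls were lost without teratoma replicate 2 (adjusted p = 0.0502 and 0.0609) and with quantile normalization (0.641 and 0.222). Col17a1 met the filter only through the teratoma libraries, so its results involving teratoma are not independent of that filter. Col28a1 stayed under 1.3 FPKM.

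The change from teratoma to transplant was then set against the change from embryo to adult, which shares no library with it. The difference of both changes passed for 26 of 42 collagens, where it did for 38.9% of all tested genes. Of the 26, 19 were above 0 and 7 below, where 21.7% and 17.2% of all genes were called. The positive ones included 6 of 8 fibrillar, 4 of 6 FACIT and 3 of 5 beaded filament genes, and the negative ones 5 of 8 basement membrane genes. Among these basement membrane genes, Col4a3 and Col4a4 were tested only because the adult libraries reached the filter. Col4a6 was tested only because the teratoma libraries reached it. Col12a1 differed most, with 4.37 ± 0.34 (limma adjusted p = 5.2e-06), being higher in transplant than in teratoma and lower in adult than in embryo. Col11a1 (log2 3.66, limma adjusted p = 3.21e-05), Col8a2 (log2 3.09, limma adjusted p = 0.00082), Col8a1 (log2 2.80, limma adjusted p = 0.000339), Col14a1 (log2 2.65, limma adjusted p = 0.000845), Col1a1 (log2 2.14, limma adjusted p = 0.00221), Col22a1 (log2 2.08, limma adjusted p = 0.0068) and Col18a1 (log2 2.03, limma adjusted p = 2.7e-05) followed.

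Of the 24 members that fell from embryo to adult, 8 also fell from teratoma to transplant, 1 rose (Col12a1) and 15 were not called. The rise of Col12a1 depended on single libraries, as given above. Over all tested genes, 18.5% were called lower and 4.18% higher from teratoma to transplant. The same split by the native change was not made over all genes, so these counts are not read as particular to collagens. The 8 were Col2a1, Col9a1, Col9a2, Col9a3, Col11a2, Col6a6, Col7a1 and Col27a1. For 7 of these 8 the difference of changes did not pass, and for Col9a2 it did (log2 1.37, limma adjusted p = 0.0045), though not with a pseudocount of 0.1 (adjusted p = 0.126). Of the 5 that rose from embryo to adult, only Col5a3 also rose from teratoma to transplant, by less than between the native stages (log2 -1.52, limma adjusted p = 0.00407). Col15a1, Col20a1, Col4a3 and Col4a4 rose in the native change and were not called after transplantation, and the difference passed for each of them. For Col4a3 and Col4a4 this is subject to the filter, which they met only in adult libraries.

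**Figure D5:**
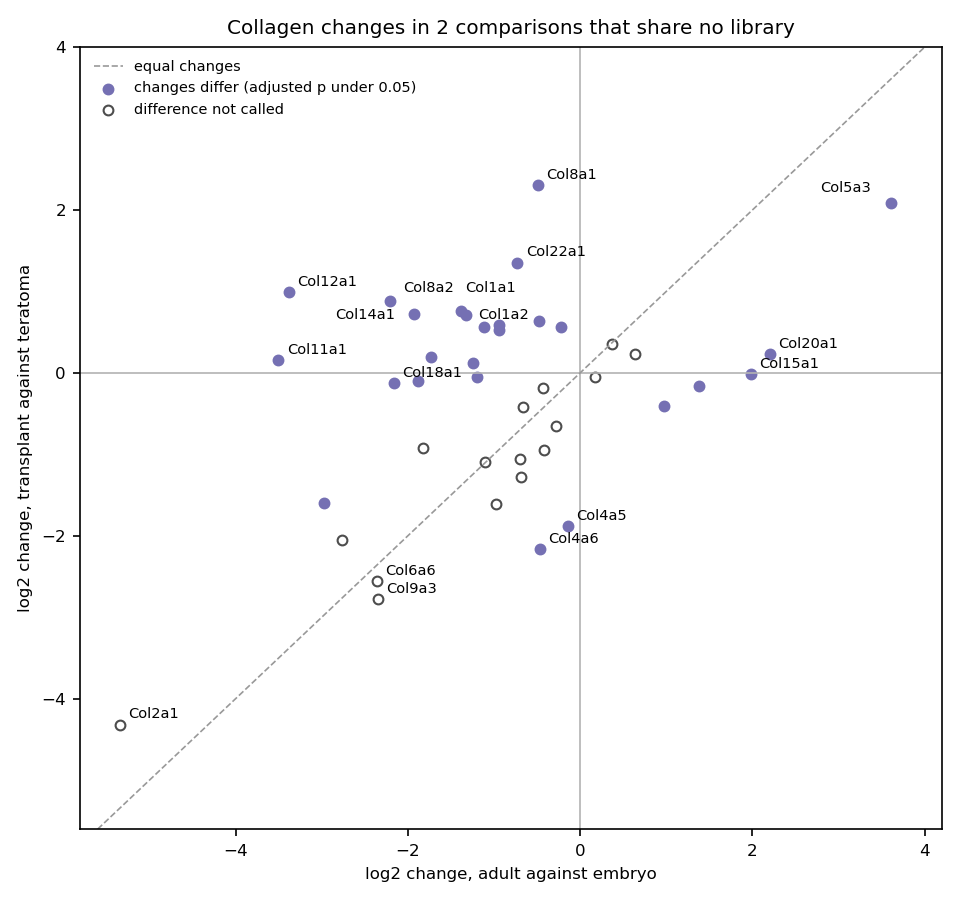
Fitted log2 change of each of the 42 tested collagens from embryo to adult (x axis) and from teratoma to transplant (y axis), filled where the difference of both changes has an adjusted p under 0.05, with a dashed line where both are equal. Col2a1, Col9a3 and Col6a6 lie near the line at the lower left, while Col12a1, Col8a2 and Col1a1 lie far above it.

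The enzymes and chaperones that collagen needs in the endoplasmic reticulum were low in adult cells, and few of them differed among the other groups. Of 20 such genes, all tested, 17 fell from embryo to adult and 0 rose, with a median log2 change of -1.23 against -0.42 over all genes, of which 15.8% were called higher and 36.9% lower. Serpinh1, the gene of HSP47, was at 284, 321 and 304 FPKM in teratoma, 445, 439 and 365 in transplant, 117, 136 and 96.4 in adult and 409, 243 and 395 in embryo, lowest in adult without overlap (against embryo, log2 change -1.55 ± 0.21 (SE), limma adjusted p = 6.03e-05). The prolyl isomerase gene Fkbp10 fell from 46.6 ± 11.6 FPKM in embryo to 6.10 ± 2.19 in adult (log2 -2.76, limma adjusted p = 1.22e-06), and P4ha3, a subunit of prolyl hydroxylase, from 9.03 ± 2.73 to 0.576 ± 0.443 (log2 -2.68, limma adjusted p = 4.22e-05). In teratoma and in transplant, 17 and 17 of the 20 were higher than in adult, where 36.4% and 27.3% of all genes were. After transplantation 2 were higher and 0 lower than in teratoma, where 4.18% of all tested genes were called higher and 18.5% lower. Of 9 secretion genes, 4 fell and 1 rose from embryo to adult, shares near those of all genes for the falls (36.9%) and for the rise (15.8%). Sec23a fell most (log2 -1.75, limma adjusted p = 1.03e-05), and 0 were called from teratoma to transplant by limma, with 1 at an unadjusted p under 0.05.

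Of the genes that trim and cross-link collagen outside the cell, more were called higher than lower in each derived group against each native one. Of 14 tested, 9 were higher and 2 lower in teratoma than in adult, where 36.4% and 8.94% of all tested genes were. Against embryo, 7 were higher and 2 lower in teratoma, where 15.5% and 10.6% of all genes were. Against teratoma, 4 were higher and 0 lower in transplant, where 4.18% and 18.5% of all genes were. Pcolce, an enhancer of procollagen trimming, was at 84.7, 105 and 154 FPKM in teratoma, 267, 231 and 169 in transplant, 35.2, 42.5 and 26.2 in adult and 64.2, 44.4 and 40.9 in embryo. Loxl1, which encodes a cross-linking enzyme, was at 44.1, 77.6 and 67.7 FPKM in teratoma, 141, 134 and 103 in transplant, 20.2, 20.7 and 17.5 in adult and 27.7, 10.9 and 20.9 in embryo. For both, embryo and adult overlapped, teratoma lay above them and transplant above teratoma. Both rose from embryo to transplant (Pcolce log2 2.14, limma adjusted p = 5.55e-05, Loxl1 log2 2.68, limma adjusted p = 2.11e-05), but their rise from teratoma to transplant depended on single libraries. That of Pcolce (log2 0.97, limma adjusted p = 0.0225) was lost without teratoma replicate 1 or 2 or transplant replicate 1 or 2 (adjusted p from 0.0626 to 0.0965). That of Loxl1 (log2 1.01, limma adjusted p = 0.0292) was lost without teratoma replicate 1 or transplant replicate 1 or 2 (adjusted p from 0.0791 to 0.121). Of 14 tested degradation genes, 3 rose and 3 fell from teratoma to transplant, where 4.18% of all genes rose and 18.5% fell. Among the 14 were the cathepsin K gene Ctsk (log2 1.71, limma adjusted p = 0.00142) and the collagenase Mmp13 (log2 -2.41, limma adjusted p = 9.1e-05). Mmp13 met the filter only through the teratoma libraries, so its fall is not independent of that filter.

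Most genes for proteins that bind collagen fibrils were higher after transplantation. Of 12 such genes, all tested, 11 were higher and 0 lower in transplant than in teratoma, with a median log2 change of 1.40 against -0.28 over all genes, of which 4.18% were called higher and 18.5% lower. The small proteoglycan gene Prelp was at 13.4, 25.9 and 14.99 FPKM in teratoma, 183, 184 and 152 in transplant, 51.2, 54.7 and 52.6 in adult and 5.98, 0.0589 and 2.56 in embryo, 9.57-fold higher in transplant than in teratoma (log2 3.24, limma adjusted p = 0.00101). Fmod, another proteoglycan of fibrils, was 4.37-fold higher (log2 2.07, limma adjusted p = 0.000827). Fn1, the gene of fibronectin, which guides fibril assembly, was at 15.4, 19.2 and 18.6 FPKM in adult and from 155 to 557 in the other libraries. Of 12 basement membrane partners, 2 rose and 4 fell from teratoma to transplant, beside the same 4.18% and 18.5% of all genes, with Lama5, a laminin of epithelia and vessels, falling (log2 -1.75, limma adjusted p = 0.000429) and the perlecan gene Hspg2 rising (log2 0.98, limma adjusted p = 0.000718).

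Receptors for collagen were measured beside it. Of 8 tested, 4 rose and 2 fell from teratoma to transplant, where 4.18% of all genes rose and 18.5% fell. Itga11, an integrin that binds fibrillar collagen, was at 1.04, 2.41 and 1.93 FPKM in teratoma, 12.1, 11.9 and 8.58 in transplant, 1.51, 0.461 and 0.711 in adult and 1.58, 1.53 and 2.51 in embryo. The related Itga10 was at 0.329, 0.209 and 0.298 FPKM in teratoma, 4.74, 3.83 and 2.32 in transplant, 0, 0.220 and 0.159 in adult and 1.42, 0.634 and 0.969 in embryo. The transplant libraries were highest for both, without overlap (against teratoma, Itga11 log2 2.10, limma adjusted p = 0.000507, and Itga10 log2 1.82, limma adjusted p = 0.00063). Itga10 met the filter only through the transplant libraries, so its calls involving transplant are not independent of that filter. Itga1 was lower in adult, at 3.07 ± 0.698 FPKM, than in embryo, at 8.99 ± 4.23 (log2 -1.23, limma adjusted p = 0.00326), though not with quantile normalization (adjusted p = 0.0797). The kinase receptor Ddr2 had means from 16.9 to 25.8 FPKM over the groups, Ddr1 from 14.1 to 33.6, and Itga2 was not tested, reaching at most 1.15 FPKM. Gpr56, a receptor for collagen III, fell from teratoma to transplant (log2 -2.01, limma adjusted p = 0.00203).

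The summed levels of the marker lists of fibroblasts and tendon cells, which make much fibrillar collagen, were highest in the transplant libraries, without overlap, as was the summed level of the fibrillar collagens. Single genes differed from the sums, with the fibroblast marker Twist2 at a mean of 0.997 FPKM in transplant and 39.9 in embryo. All 10 fibroblast genes reached 1 FPKM in at least 1 teratoma, transplant and adult library, and their sum ranged over 416 to 530.0 FPKM in teratoma, 944 to 1416 in transplant, 407 to 478 in adult and 295 to 414 in embryo. From teratoma to transplant 5 of 10 were called higher and 1 lower, where 4.18% of all tested genes were called higher and 18.5% lower. Pi16 was at 9.91, 25.8 and 12.6 FPKM in teratoma and 119.8, 75.6 and 66.9 in transplant. The 6 tendon genes, all tested, summed to 51.5 to 81.9 FPKM in teratoma, 366 to 691 in transplant, 48.4 to 70.1 in adult and 28.0 to 37.6 in embryo, and 4 were called higher and 0 lower in transplant than in teratoma, beside these same shares. Tnmd, the gene of the tendon protein tenomodulin, was at 0.497, 6.02 and 2.36 FPKM in teratoma and 87.8, 52.8 and 35.9 in transplant. Dcn and Lum of the fibroblast list and Fmod and Kera of the tendon list also belong to the fibril binding list. The Schwann list (5 genes) summed to 2.84 to 3.70, 1.48 to 8.01, 8.03 to 25.3 and 30.4 to 44.3 FPKM and the bone list (6 genes, 4 tested) to 15.2 to 19.1, 6.44 to 12.6, 7.32 to 16.3 and 10.7 to 16.5 FPKM in teratoma, transplant, embryo and adult. The part of these cells in the collagen levels was not tested.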

How the data were processed

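RNA was extracted from sorted cells with a column kit and DNase I and sequenced after a stranded total RNA library kit for small amounts, per the labels' protocols. The authors deposited 1 table of FPKM values for all 12 libraries, and the submitters' processing notes list the build mm10 and the tools Cufflinks 2.2.1.0, TopHat 0.7, CASAVA 1.8.2 and Partek, with no role or order. How deeply libraries were sequenced, and whether counting used strand, is not stated in the sources used here, so no counting interval is printed. Of 23746 rows, those of 240 symbols listed more than once were summed, which touched no collagen. Emid2, an older symbol of a collagen gene, lies outside the rule and was not analysed here.

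Genes reaching 1 FPKM in at least 3 libraries were fitted as log2(FPKM + 1) with limma 3.58.1 in R 4.3.3 (4 groups, 8 residual degrees of freedom, mean-variance trend), with Benjamini-Hochberg adjustment over all tested genes within each comparison and a threshold of 0.05. The pseudocount of 1 understates changes of low genes. Folds are ratios of mean FPKM. The exact permutation test of 3 against 3 libraries cannot give a two-sided p below 0.1 and was not used. Alternatives were another pseudocount, other filters, other scalings, library weights, only the groups compared, a replicate block and leaving out each library.

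The members, classes and supporting lists were chosen with earlier results of these data known. Collagens with a group mean of at least 10 FPKM are given by library, and lower ones by range or where they head their class. From each of 7 supporting lists up to 4 called genes per comparison were eligible by size of change, and Serpinh1, Itga1, Itga2, Itga10, Itga11, Ddr1 and Ddr2 were fixed. Marker genes given by name were chosen after their values were seen.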

Additional observations from a re-analysis of the deposited data

Results flagged for a closer look

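The change from teratoma to transplant and the change from embryo to adult were compared gene by gene, and 26 collagens are listed here because the difference of these changes passed in limma (adjusted p at most 0.0365). Values are the first log2 change minus the second. Among fibrillar genes they were Col1a1 2.14, Col1a2 2.03, Col24a1 1.78, Col3a1 1.53, Col5a1 1.36, Col5a2 1.11 and Col5a3 -1.52. Among FACIT genes they were Col12a1 4.37, Col14a1 2.65, Col22a1 2.08, Col16a1 1.14 and Col20a1 -1.97. For beaded filament genes the values were Col6a3 1.68, Col6a2 1.47 and Col6a1 0.78, and for basement membrane genes Col18a1 2.03, Col4a4 -1.37, Col4a3 -1.53, Col4a6 -1.69, Col4a5 -1.74 and Col15a1 -1.999. The cartilage genes Col11a1 3.66 and Col9a2 1.37, the short-chain genes Col8a2 3.09 and Col8a1 2.80 and the transmembrane gene Col25a1 1.92 complete the list. Under every alternative that tested the gene, 16 of the 19 positive and 7 of the 7 negative calls passed. The exceptions were Col16a1, Col6a1 and Col9a2. The filter at a mean of 5 FPKM tested only 15 of the 19 and 2 of the 7. With the main filter, Col4a3 and Col4a4 were tested only because the adult libraries reached it, and Col4a6 only because the teratoma libraries did.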

How the results depend on the processing

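Counts of collagens called stayed within 1.5 times of the reported ones except as follows. With a filter at a mean of 5 FPKM, which leaves 22 collagens, adult against embryo had 2 higher, teratoma against embryo 0 lower, teratoma against adult 21 higher and 1 lower, transplant against teratoma 5 lower, transplant against adult 0 lower, transplant against embryo 2 lower, and the difference of changes 2 below 0. In teratoma against embryo 2 were lower with a pseudocount of 0.1, with no filter and with only the groups compared, and 2 to 4 with 1 library left out. In teratoma against adult 5 were lower with median-ratio scaling and 7 with quantile normalization. From teratoma to transplant 11 were higher with median-ratio scaling, 8 with quantile normalization, 11 with small and ribosomal RNA left out and rescaled, 9 with library quality weights and 2 to 6 with 1 library left out. In transplant against adult 5 were lower with quantile normalization. Signs reversed in teratoma against adult for Mia3 (-0.0501, limma adjusted p = 0.789) and Mrc2 (-0.0804, limma adjusted p = 0.734) with median-ratio scaling, and for Col28a1 (-0.81, limma adjusted p = 0.0215) and Col6a5 (-0.81, limma adjusted p = 0.0373) with quantile normalization. The cause was not tested, other than the fewer genes of the stricter filter. Same-numbered libraries of different groups did not deviate together (18 correlations from -0.0951 to 0.0956). Their mean was -0.00317, against 0.00179 for pairs with other numbers. Such weak values cannot tell whether same-numbered libraries share an origin. With a replicate block, 16 collagens were higher and 3 lower in teratoma against embryo, 4 higher from teratoma to transplant, 24 higher in transplant against adult and 18 above 0 for the difference of changes, and other counts did not change. The unknown read depth limits what can be said of members near 0.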
